A study of Mus musculus with 8 samples.

Results

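The genes described here are 38 factors of ribosome biogenesis and of the nucleolus, measured in mouse hematopoietic stem cells (HSCs) sorted by size. They were taken from a fixed list of gene symbols, matched to the gene identifiers of the deposited tables through the GENCODE M21 annotation of GRCm38, the assembly also called mm10. All 38 were found among 50686 gene identifiers, and all 38 were among the 16066 genes that passed a filter on low counts and were tested. HSCs are the marrow cells that maintain the blood lineages, and the comparison asks how their transcripts differ with cell size. The cells came from C57BL/6J mice, with no treatment or allele named in the labels of these libraries, from marrow depleted of lineage-positive cells and stained with antibodies to CD117, Sca-1, CD48 and CD150, and 10000 cells in G0/1 were sorted per library. Small and Large libraries held the 10% of cells at either end of the distribution of light scatter, Medium libraries held cells within 10% of the mean size, and All libraries were not divided by size. Each of these 4 groups had 2 libraries, numbered 1 and 2, made with a low-input kit. The labels do not say how many animals were pooled, give no age, and do not say whether the 2 libraries of a group had separate mice as their source. P-values therefore reflect the spread among these 8 libraries alone, which may be technical. Values of a pair of libraries are always given with number 1 first and number 2 second.

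Ribosomes are built in the nucleolus, where RNA polymerase I transcribes the long precursor of the ribosomal RNAs. Small nucleolar ribonucleoproteins (snoRNPs) guide ribose methylation (box C/D class) and pseudouridylation (box H/ACA class) of that precursor, and the small subunit processome and separate large-subunit assembly factors fold, cleave and trim it. Stem cells of the blood are known for a low rate of protein synthesis compared with the progenitors they give rise to.

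Of the 38 genes, 7 carry annotated snoRNA genes on the same strand within their own borders, which makes them both protein-coding genes and hosts of the guide RNAs. They were Nop58, Nop56, Dkc1, Ncl, Wdr43, Tsr1 and Gnl3. The share was 18.4% of the 38, against 1.66% of the 13215 protein-coding genes tested (219 genes). The 3 sequences below are shown because their hosts Nop58, Nop56 and Ncl, described later, were among the genes whose Large libraries both lay above both Small libraries, and because each lies outside every annotated exon of its host, that is, within an intron. They are the GENCODE M21 transcripts, written 5′ to 3′, with box C (TGATGA) and box D (CTGA), the short motifs bound by the core proteins, in capitals.
Snord11 in Nop58 (chr1:59704790-59704873, plus strand): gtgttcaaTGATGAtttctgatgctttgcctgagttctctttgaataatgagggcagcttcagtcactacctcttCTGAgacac
Snord110 in Nop56 (chr2:130275506-130275573, plus strand): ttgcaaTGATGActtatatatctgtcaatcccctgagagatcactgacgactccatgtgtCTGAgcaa
Snord82 in Ncl (chr1:86356261-86356330, minus strand): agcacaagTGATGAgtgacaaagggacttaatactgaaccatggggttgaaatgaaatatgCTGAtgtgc
The snoRNAs are 84, 68 and 70 bases long. The host of Snord11 encodes one of the core proteins that bind box C/D snoRNAs, and so does the host of Snord110.

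Total counts ran from 13698362 to 16838448 over the 8 libraries, and the lowest count of any of the 38 genes in any library was 450, for Nop14. CPM are counts scaled to a library total of 1000000 and, here, between libraries with edgeR's TMM factors. The leading principal component of all tested genes (39.5% of the variance) divided the libraries by replicate number and not by size, with number 1 from -81.2 to -31.1 and number 2 from 0.984 to 106. The 38 genes took part in this. Between 31 and 36 of them had a higher level in number 1 than in number 2 within a group, with median log2 differences of 0.27 to 0.43, while 48.6% to 50.3% of all tested genes were higher in number 1. Comparisons between groups are therefore also given within each number. The 14 HSC markers examined, such as Kit, Ly6a and Slamf1, were detected in every library, but 11 of 14 were lower in Large than in Small within both numbers (median log2 difference -0.72), beside 30.9% of all tested genes. Transcripts of 20 genes of DNA replication and G1/S phase were higher in Large than in Small within both numbers for 20 of 20 genes, beside 32.9% of all tested genes (median 0.82, summed 9074 and 7821 CPM in the Large pair against 6545 and 3587 in the Small pair), although the cells were sorted in G0/1. For 16 genes of G2/M phase it was 15 of 16 (median 0.87). Against Medium and All, 12 and 13 of the 14 HSC markers were lower in Large within both numbers, beside 33% and 32.6% of all tested genes. The G1/S genes were higher in Large for 20 of 20 in both comparisons, beside 32.9% and 31.2%. For the G2/M genes it was 14 and 15 of 16. Granulocyte and monocyte markers, 20 of 20 detected in every library, summed to 50770 and 14614 CPM in the Small pair, 28207 and 10193 in the Medium pair, 48408 and 25688 in the Large pair, and 66531 and 5004 in the All pair. Within both numbers, 5 of these 20 were higher in Large than in Small and 0 lower, beside 32.9% and 30.9% of tested genes. The 5 were Mpo, Elane, Prtn3, Ctsg and Ms4a3, with Elane at 6329 and 2502 CPM in Large against 3934 and 1081 in Small. The median of the 20 was -0.06 (-0.43 within number 1 and 0.825 within number 2), with 8 of 20 fitted differences above 0. Against Medium, 15 of 20 were higher in Large and 0 lower, beside 32.9% and 33% of tested genes. Against All, 7 were higher and 0 lower, beside 31.2% and 32.6%. Among multipotent progenitor markers, Cd48 was higher in Large within both numbers (159.1 and 105.2 CPM against 135.7 and 62.69). Flt3 was lower, and Cd34 had opposite signs. Summed markers of the other cell types ranged over the libraries from 439 to 2101 CPM for multipotent progenitors, 379 to 2597 for erythroid cells, 111 to 983 for T and NK cells (53.1 to 970.1 of it Nkg7, with Cd3e, Cd3d, Cd3g and Cd8a at 3.31 or less), 156 to 534 for megakaryocytes, 74.6 to 204 for macrophages and dendritic cells, and 47.9 (Large 1) to 696 (Large 2) for B cells. The part of these differences in the results for the 38 genes was not tested, and in bulk libraries a change in the share of cells and a change in RNA per cell cannot be told apart.

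In Large HSCs the transcripts of most of the 38 genes had a higher relative abundance than in Small, Medium or All HSCs, by about the size of the difference between the replicate numbers, and no single gene passed the test. Large had the highest mean of the 4 groups for 35 of 38 genes, Small for the other 3 (Mybbp1a, Rrp1 and Rrp9). The highest single library was Large 1 for 31 genes, and the lowest was Small 2 for 17 and All 2 for 11. These counts were not taken over all tested genes. Within both numbers Large was the highest of the 4 groups for 28 of 38 genes, beside 15.2% of all tested genes. Summed over the 38 genes, the level was 6301 and 5039 CPM in the Small pair, 7006 and 5529 in the Medium pair, 8359 and 6431 in the Large pair, and 6437 and 5461 in the All pair. Large was thus the highest group within each number, while Large 2 lay only slightly above Small 1 and below Medium 1. The sums of the 8 role groups are plotted by library.

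**Figure D1:**
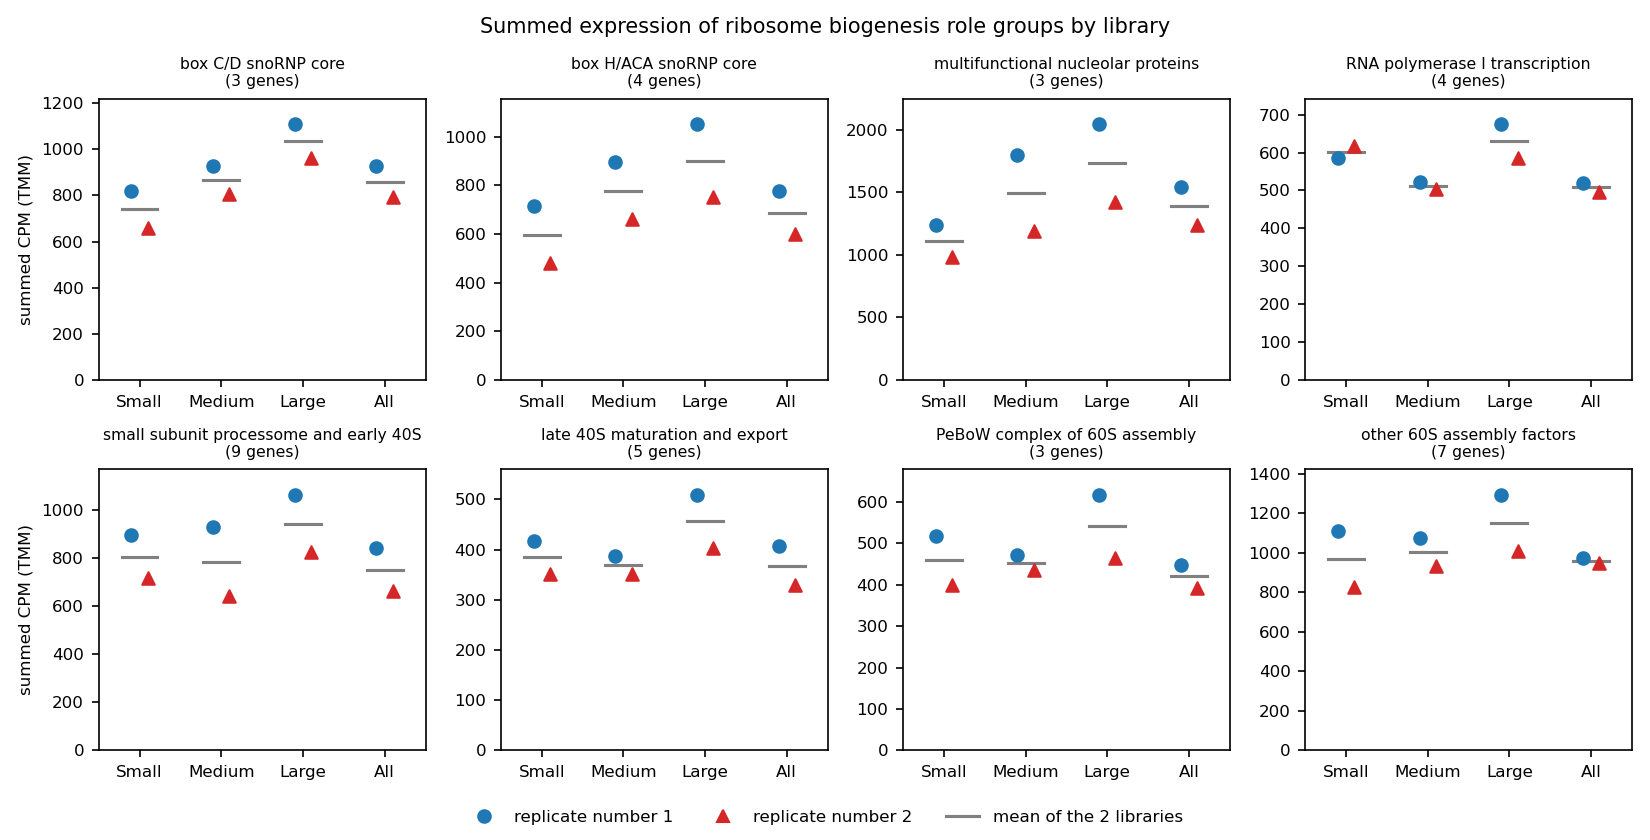
Summed CPM (vertical axes, from 0) of the genes of each role in each library, by size group, with circles for replicate number 1, triangles for number 2 and a grey line at the mean of the 2 libraries. In all 8 panels the Large circle is the highest point of number 1, and in 7 of 8 the Large triangle is the highest of number 2; in the polymerase I panel Small 2 (619 CPM) lies above Large 2 (585 CPM).

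For Large against Small, the fitted log2 difference (edgeR's quasi-likelihood fit over all 8 libraries) was above 0 for 35 of 38 genes (49.9% of all tested genes), from -0.12 (Rrp9) to 0.90 (Dkc1). The median was 0.29, with 0.30 within number 1 and 0.28 within number 2, against 0.00 over all 16066 genes tested. Of the 38 genes, 31 were higher in Large within both numbers and 1, Rrp9, was lower, beside 32.9% and 30.9% of all tested genes. Both Large libraries lay above both Small libraries for 11 genes and below them for 0, beside 17.7% and 14.7% of all tested genes. None passed edgeR's test at an adjusted p of 0.05, nor did any of all the genes tested (0% called). At an unadjusted p under 0.05 there were 2 of the 38, Nop58 and Dkc1, beside 506 of all genes (3.15%). DESeq2 called 12 genes in all and 0 of the 38. The level of the difference moved with the libraries used. The median was 0.07 without Large 1 and 0.17 without Small 2, and 0.56 without Small 1 and 0.50 without Large 2. Each such fit, here and below, sets 1 replicate number of a group against both numbers of the other. Differences between the numbers therefore enter it. On the scale of the deposited TPM (a transcript abundance divided by transcript length, with each library held to the same total), 21 of the 38 genes were higher in Large within both numbers and 5 were lower, beside 23% and 40.1% of all tested genes. On that scale the median of all genes was -0.11 and that of the 38 genes 0.14, a difference of 0.25. The genes that were lower within both numbers on TPM were Ubtf, Rrp9, Rrp12, Nob1 and Rrp1.

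**Figure D2:**
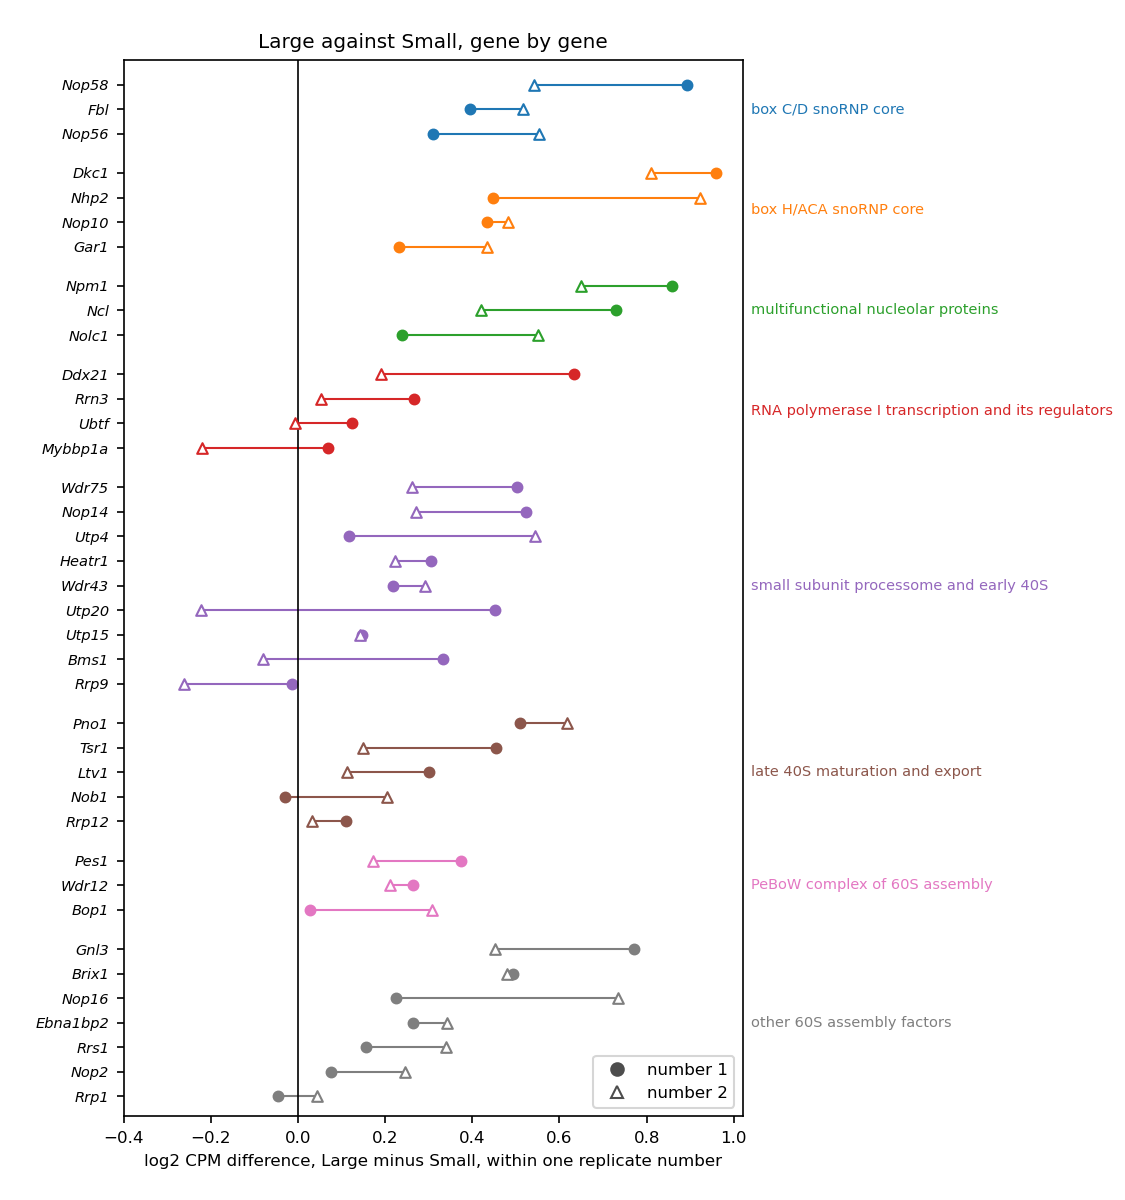
Difference in log2 CPM between Large and Small (horizontal axis) for each of the 38 genes, grouped and coloured by role, with a filled circle for replicate number 1 and an open triangle for number 2. Every gene of the snoRNP cores and of the multifunctional nucleolar proteins has both points to the right of 0, whereas Mybbp1a, Rrp9, Utp20, Bms1, Ubtf, Nob1 and Rrp1 have at least 1 point to the left.

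Of the core proteins of box C/D snoRNPs, 3 are among the 38 genes, while Snu13 was placed in the list of other small-subunit factors. These 3 were each higher in Large than in Small in all pairs of libraries, on CPM and, within both numbers, on TPM. Nop58 (ENSMUSG00000026020, chr1:59684971-59719044, plus strand, 13 exons), which with Nop56 bridges the guide RNA and the methyltransferase, had 132 and 143 CPM in the Small pair, 227 and 177 in the Medium pair, 244 and 208 in the Large pair and 209 and 154 in the All pair. Both Small libraries were the lowest of the 8 and Large 1 was the highest, with Medium close to Large. The difference between Large (226 ± 25.9, SD, n = 2) and Small (137 ± 7.87) was log2 0.72, SE 0.24, adjusted p = 0.975 by edgeR (unadjusted p = 0.018, the smallest of the 38), with 0.89 within number 1 and 0.54 within number 2. Nop56 (ENSMUSG00000027405, chr2:130274430-130279313, plus strand, 12 exons) had 566 and 426 CPM in the Small pair, 571 and 517 in the Medium pair, 702 and 626 in the Large pair and 588 and 536 in the All pair. The 2 Large libraries were the highest of all 8, and Small 2 stood below the rest while Small 1 was level with Medium 1. Its difference was smaller (log2 0.42, SE 0.20, adjusted p = 0.975, edgeR), with 0.31 within number 1 and 0.55 within number 2. Fbl (ENSMUSG00000046865, chr7:28169710-28179269, plus strand, 9 exons), fibrillarin, the methyltransferase itself, had 123 and 91.5 CPM in the Small pair, 132 and 113 in the Medium pair, 162 and 131 in the Large pair and 132 and 101 in the All pair. Large 2 overlapped Medium and All but lay above both Small libraries (log2 0.45, SE 0.25, adjusted p = 0.975, edgeR). Over the 3 genes the median difference was 0.45 (0.40 within number 1 and 0.54 within number 2), and leaving out 1 library gave 0.25 (without Small 2) to 0.67 (without Small 1).

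The 4 core proteins of box H/ACA snoRNPs were higher in Large than in Small within both numbers, on CPM and on TPM, with a median of 0.54 (0.44 and 0.65). Dkc1 (ENSMUSG00000031403, chrX:75095854-75109777, plus strand, 15 exons), the pseudouridine synthase dyskerin, had 152 and 115 CPM in the Small pair, 248 and 144 in the Medium pair, 295 and 201 in the Large pair and 217 and 174 in the All pair. Small was the lowest and Large the highest group within each number, and number 1 lay above number 2 in every group. The difference between Large (248 ± 66.2, SD, n = 2) and Small (133 ± 26) was the largest of the 38 (log2 0.90, SE 0.34, adjusted p = 0.975, edgeR; unadjusted p = 0.0324), with 0.96 within number 1 and 0.81 within number 2. Nop10 (ENSMUSG00000027133, chr2:112261926-112263269, plus strand, 2 exons), the smallest protein of the complex, had 325 and 241 CPM in the Small pair, 415 and 336 in the Medium pair, 439 and 337 in the Large pair and 338 and 286 in the All pair. Both Large and both Medium libraries lay above both Small libraries, Large 2 and Medium 2 being level (log2 0.45, SE 0.24, adjusted p = 0.975 for Large against Small, edgeR). Nhp2 (chr11:51619735-51623714, plus strand), which binds the snoRNA, had 187 and 91 CPM in the Small pair, 181 and 151 in the Medium pair, 254 and 173 in the Large pair and 176 and 106 in the All pair. Its Small 1 library lay above Large 2, so the groups overlapped (log2 0.62, SE 0.41, adjusted p = 0.975, edgeR), and Small 2 was the lowest of all. Gar1, which completes the complex, had 63 and 43.7 CPM in the Large pair against 53.6 and 32.4 in the Small pair, which overlapped (log2 0.31, SE 0.38, edgeR). Without Small 2 the median of the 4 genes was 0.23, without Large 1 it was 0.28, and without Small 1 it was 0.92.

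Nucleolin, nucleophosmin and the snoRNP chaperone Nolc1, nucleolar proteins with several functions, had a median difference between Large and Small of 0.59 (0.73 within number 1 and 0.55 within number 2). All 3 were higher within both numbers, on CPM and on TPM. Npm1 (ENSMUSG00000057113, chr11:33152287-33163206, minus strand, 11 exons), nucleophosmin, a chaperone of the granular component of the nucleolus, had 529 and 405 CPM in the Small pair, 821 and 473 in the Medium pair, 959 and 635 in the Large pair and 713 and 506 in the All pair. Large was highest and Small lowest within each number, while Medium 1 lay above Large 2 (log2 0.77, SE 0.35, adjusted p = 0.975 for Large against Small, edgeR; 0.86 within number 1 and 0.65 within number 2). Ncl (ENSMUSG00000026234, chr1:86344719-86359400, minus strand, 14 exons), nucleolin, which binds ribosomal RNA precursors and nucleolar chromatin, had 522 and 451 CPM in the Small pair, 805 and 586 in the Medium pair, 865 and 604 in the Large pair and 695 and 603 in the All pair. Both Small libraries were the lowest of the 8, and Large 2 was level with All 2 and Medium 2 (log2 0.59, SE 0.26, adjusted p = 0.975 for Large against Small, edgeR). Nolc1 (chr19:46075863-46085530, plus strand) had 185 and 126 CPM in the Small pair, 171 and 134 in the Medium pair, 219 and 184 in the Large pair and 135 and 127 in the All pair. Its pattern differed from the other two: Small 1 was as high as Large 2, and the separation was from Medium and All instead. Against All the difference for Nolc1 was log2 0.62, SE 0.25, adjusted p = 0.885 by edgeR (unadjusted p = 0.0437), with 0.69 within number 1 and 0.54 within number 2. For Large against Small the median of the 3 genes was 0.31 without Large 1 and 0.83 without Large 2.

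Factors of RNA polymerase I transcription did not show a shared difference between Large and Small. The median of the 4 genes was 0.11, with 0.20 within number 1 and 0.02 within number 2, and within number 2 it was -0.01 with DESeq2's size factors and -0.21 on TPM. Without Large 1 it was 0.003, and without Large 2 it was 0.21. Ubtf, the upstream binding factor that holds the ribosomal DNA in an active state, had 138 and 144 CPM in the Small pair, 137 and 136 in the Medium pair, 150.0 and 144 in the Large pair and 142 and 139 in the All pair. All 8 libraries lay in a narrow range (log2 0.06, SE 0.17 for Large against Small, edgeR). Rrn3 (chr16:13780708-13814839, plus strand), which recruits the polymerase to the promoter, had 91.1 and 82.3 CPM in the Small pair, 80.2 and 68.4 in the Medium pair, 109.6 and 85.4 in the Large pair and 86.7 and 65.7 in the All pair. Both Large libraries lay above both Medium libraries (log2 0.39, SE 0.24, adjusted p = 0.989, edgeR), and the Large and Small libraries overlapped. Ddx21 (chr10:62580251-62602281, minus strand), an RNA helicase that links polymerase I transcription with processing, had 79.8 and 70.6 CPM in the Small pair, 93.3 and 78.5 in the Medium pair, 124 and 80.6 in the Large pair and 87.6 and 76.4 in the All pair. Large 1 stood well above all other libraries and Large 2 only just above Small 1 (log2 0.44, SE 0.26, adjusted p = 0.975 for Large against Small, edgeR), and on TPM Ddx21 was lower in Large 2 (23.9) than in Small 2 (24.1).

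Mybbp1a, a nucleolar protein that represses several transcription factors and takes part in ribosomal RNA processing, had its highest mean in Small and its lowest in All. Mybbp1a (ENSMUSG00000040463, chr11:72441355-72451768, plus strand, 26 exons) had 277 and 321 CPM in the Small pair, 213 and 221 in the Medium pair, 291 and 276 in the Large pair and 203 and 216 in the All pair. Both Small and both Large libraries lay above all Medium and All libraries, and Small 2 was the highest of the 8. The difference for Medium against Small was log2 -0.47, SE 0.17, adjusted p = 1 by edgeR (unadjusted p = 0.0313; -0.38 within number 1 and -0.54 within number 2). For Small against All it was log2 0.52, SE 0.17, adjusted p = 1 (unadjusted p = 0.0209), and for Large against All log2 0.44, SE 0.17, adjusted p = 0.885 (unadjusted p = 0.0405). Large against Small was log2 -0.08, SE 0.17, with 0.07 within number 1 and -0.22 within number 2, so the 2 extreme gates did not differ beyond their spread. Within number 1 on TPM, Mybbp1a was 100.0 in Large and 99.1 in Small.

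The small subunit processome and early steps of the small subunit held 9 genes. Of these, 6 were higher in Large than in Small within both numbers on CPM and 3 on TPM. The shares of all tested genes were 32.9% and 23%. On TPM the median was 0.12 within number 1 and -0.05 within number 2, beside a fitted -0.11 over all tested genes. On CPM the median was 0.25 (0.31 and 0.22), with 0.05 without Large 1, 0.13 without Small 2 and 0.42 without Large 2. Nop14 (ENSMUSG00000036693, chr5:34638536-34660148, minus strand, 18 exons), a processome component, was the only one of the 9 whose Large libraries both lay above both Small libraries, and it had 32.3 and 33.4 CPM in the Small pair, 50.5 and 32.9 in the Medium pair, 46.5 and 40.3 in the Large pair and 31.3 and 49.8 in the All pair. Both Small libraries were low, but so were Medium 2 and All 1, and the highest were Medium 1 and All 2 (log2 0.40, SE 0.32, adjusted p = 0.975 for Large against Small, edgeR). Wdr43 (chr17:71615895-71659031, plus strand), a subunit of the UTP-A complex, was the most abundant of the 9 per length (mean 82.6 TPM) and had 250.3 and 207 CPM in the Large pair against 215 and 169 in the Small pair. Utp4, of the same complex, followed (76.4 TPM) and had 167 and 123 CPM in the Large pair against 154 and 84.3 in the Small pair. In both genes the Large 1 library was the highest, and Large 2 lay below Small 1 (log2 0.25, SE 0.31 for Wdr43 and log2 0.28, SE 0.34 for Utp4, edgeR). Utp15, Wdr75 and Heatr1, all of UTP-A, were higher within both numbers too, with differences of 0.15, 0.40 and 0.27. Utp20 and Bms1 had opposite signs in the 2 numbers: Utp20, a very large scaffold, had 0.45 and -0.22, and Bms1, the GTPase of the processome, had 0.33 and -0.08. Rrp9 (ENSMUSG00000041506, chr9:106475963-106485424, plus strand, 15 exons), the U3 snoRNP protein, had 63.3 and 52.1 CPM in the Small pair, 59.2 and 51.1 in the Medium pair, 62.7 and 43.4 in the Large pair and 49.6 and 45 in the All pair. It was the only member lower in Large within both numbers on CPM, and the only one whose means were ordered Small, Medium, Large from high to low, but the difference was within its error (log2 -0.12, SE 0.26, adjusted p = 0.975, edgeR; -0.02 within number 1 and -0.26 within number 2).

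The 5 factors of late small-subunit maturation and export had a median difference of 0.21 (0.30 and 0.15) between Large and Small on CPM, with 0.06 without Large 1 and 0.35 without Large 2. On TPM it was 0.16 within number 1 and -0.03 within number 2, beside a fitted -0.11 over all tested genes. Ltv1 (ENSMUSG00000019814, chr10:13178140-13193168, minus strand, 11 exons), an adaptor on the precursor of the small subunit, had 117 and 109 CPM in the Small pair, 104 and 109 in the Medium pair, 144 and 118 in the Large pair and 109.9 and 94.3 in the All pair. Both Large libraries were the highest of the 8, Large 2 only just above Small 1 (log2 0.21, SE 0.20, adjusted p = 0.975 for Large against Small, edgeR). Nob1 (chr8:107412486-107425051, minus strand), the endonuclease of the final cleavage, had 94.6 and 81.6 CPM in the Large pair against 96.7 and 70.8 in the Small pair. Its highest and lowest libraries were both in Small, and the difference was log2 0.07, SE 0.23 (edgeR). Pno1 (chr11:17203198-17211568, minus strand), the partner of Nob1, had 66.8 and 40.5 CPM in the Small pair, 63.8 and 38.5 in the Medium pair, 95.1 and 62.2 in the Large pair and 69.9 and 27.9 in the All pair. It spread more widely between the numbers than any other gene of this role, with All 2 the lowest library and Large 1 the highest (log2 0.55, SE 0.51, adjusted p = 0.975 for Large against Small, edgeR). Tsr1, a GTPase-like factor on the same particle, differed by 0.32 and shares 32.3% of its annotated exon bases with Srr on the opposite strand. The sources used here do not say if reads were counted by strand. Rrp12, an export factor, had a difference of 0.07 from Small but of 0.39 from Medium, and both its Large libraries (50.3 and 55.5 CPM) lay above both Medium libraries (33.4 and 47.2).

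The PeBoW complex is made of Pes1, Bop1 and Wdr12 and required for the maturation of the large-subunit RNAs. Its median difference between Large and Small was 0.24 (0.26 and 0.21). All 3 genes were higher within both numbers on CPM and 1 on TPM, beside 32.9% and 23% of all tested genes. Wdr12 (chr1:60069785-60098645, minus strand) had 215 and 157 CPM in the Small pair, 209 and 173 in the Medium pair, 258 and 182 in the Large pair and 196 and 167 in the All pair. Pes1 (chr11:3963975-3980004, plus strand) had 180.2 and 154 CPM in the Small pair, 172 and 168 in the Medium pair, 234 and 173 in the Large pair and 156 and 150.4 in the All pair. In both genes Large 1 was the highest library, and in both the Large and Small groups overlapped (log2 0.24, SE 0.26 for Wdr12 and log2 0.28, SE 0.21 for Pes1, edgeR). Bop1 had 126 and 111 CPM in the Large pair against 123 and 89.3 in the Small pair, and the 2 groups overlapped there too (log2 0.15, SE 0.24). The median of the 3 was 0.03 without Small 2, 0.05 without Large 1 and 0.47 without Large 2.

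Of the 7 other large-subunit factors, 6 were higher in Large than in Small within both numbers on CPM and 5 on TPM. The shares of all tested genes were 32.9% and 23%. The CPM median was 0.30 (0.23 and 0.34). Gnl3 (ENSMUSG00000042354, chr14:31012433-31019152, minus strand, 15 exons), nucleostemin, a nucleolar GTPase first described in stem cells, had 87.7 and 81.2 CPM in the Small pair, 151 and 91.3 in the Medium pair, 149.8 and 111 in the Large pair and 113 and 116 in the All pair. Both Small libraries were the lowest of the 8, and Medium 1 was as high as Large 1 (log2 0.63, SE 0.28, adjusted p = 0.975 for Large against Small, edgeR; 0.77 within number 1 and 0.45 within number 2). Rrp1 (ENSMUSG00000061032, chr10:78400384-78413043, minus strand, 13 exons) was the most abundant of the role per length and had 350.1 and 345 CPM in the Small pair, 281 and 378 in the Medium pair, 339 and 355 in the Large pair and 273 and 380.3 in the All pair. It showed no difference between Large and Small larger than its spread (log2 -0.001, SE 0.23, edgeR), and both its highest and its lowest library were in All. Ebna1bp2 (chr4:118620799-118627776, plus strand), an early assembly factor, had 164 and 114 CPM in the Small pair, 152 and 133 in the Medium pair, 197 and 145 in the Large pair and 149 and 134 in the All pair. Large 1 was the highest, and Large 2 lay between the Small libraries (log2 0.30, SE 0.26, adjusted p = 0.975, edgeR). Brix1, Nop16, Rrs1 and Nop2 had differences of 0.49, 0.42, 0.22 and 0.14, all with Small 1 above Large 2. Without Small 2 the median of the 7 genes was 0.015, without Large 1 it was 0.06, and without Small 1 it was 0.68.

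**Figure D3:**
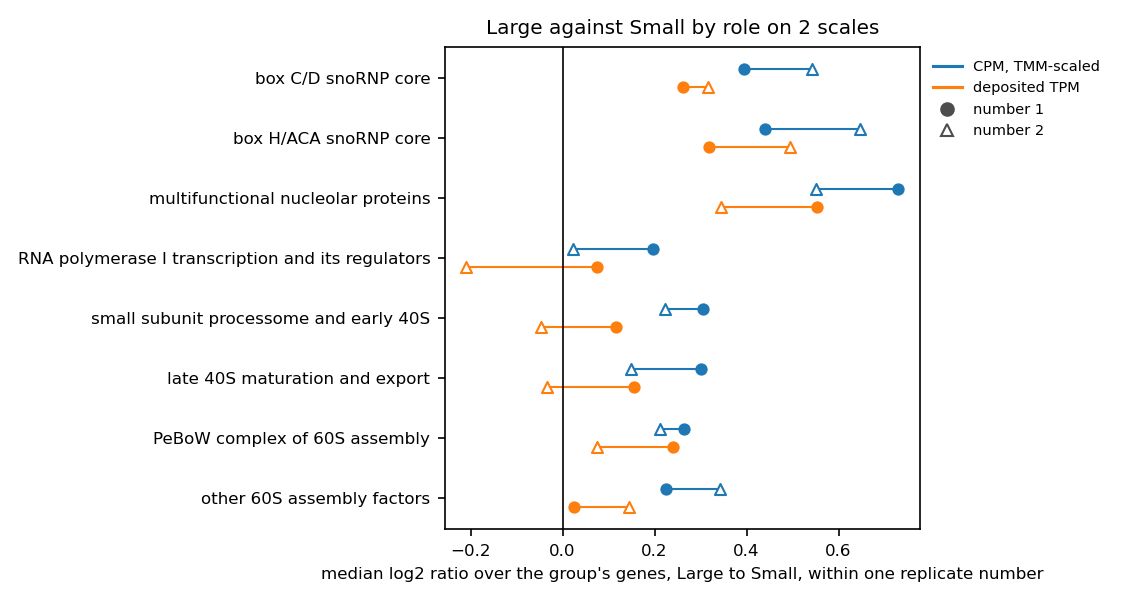
Median log2 ratio of Large to Small over the genes of each role (horizontal axis), on TMM-scaled CPM (blue) and on the deposited TPM (orange), with a filled circle for replicate number 1 and an open triangle for number 2. The snoRNP cores and the multifunctional nucleolar proteins are above 0 on both scales in both numbers (0.26 or more). Polymerase I, small subunit processome and late small-subunit factors are below 0 in number 2 on TPM (-0.21, -0.05 and -0.03). On the TPM scale the fitted median over all tested genes was -0.11.

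Medium HSCs lay between Small and Large by the medians of the snoRNP cores and the multifunctional proteins, and below Small by that of the polymerase I factors. Against Small, the median over the 38 genes was -0.02 (-0.004 within number 1 and 0.09 within number 2), close to -0.01 over all genes, and 18 of 38 fitted differences were above 0 (49% of all tested genes). Of the 38, 11 were higher in Medium within both numbers and 7 were lower, beside 30.1% and 29.3% of all tested genes, and on TPM they were 10 and 14, beside 26.3% and 33.4%. Both Medium libraries lay above both Small libraries for 4 genes (Nop58, Nop10, Ncl and Gnl3) and below them for 4 (Ubtf, Rrn3, Mybbp1a and Ltv1), beside 16.6% and 14.3%. By role, the median was 0.19 for box C/D, 0.33 for box H/ACA and 0.47 for the multifunctional proteins, and -0.14 for polymerase I factors. Large against Medium, which shares the Medium libraries, gave 0.26, 0.35, 0.30 and 0.32 for the same roles. The first 3 of the medians against Small moved when 1 library was left out. In the same order they were -0.01, 0.02 and 0.29 without Small 2, and 0.07, 0.11 and 0.02 without Medium 1. That of the polymerase I factors ran from -0.20 to -0.06 when each library of the 2 groups was left out. For Nop58 the difference was log2 0.56, SE 0.23 (edgeR, unadjusted p = 0.0484) and for Ncl it was log2 0.51, SE 0.26. No gene was called by edgeR (0% of all genes), and 2 of the 38, Nop58 and Mybbp1a, had an unadjusted p under 0.05, beside 4.33% of all tested genes; DESeq2 called 47 genes, none of the 38. The median was 0.28 without Small 1 and -0.15 without Small 2, so its sign changed with the replicate number kept for Small.

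Large was above Medium by about as much as above Small, although the 2 comparisons share the Large libraries. The median was 0.29 (0.30 within number 1 and 0.23 within number 2), against -0.01 over all genes, and 37 of 38 fitted differences were above 0 (48.8% of all tested genes). Within both numbers, 33 of 38 genes were higher in Large and 0 lower, beside 32.9% and 33% of all tested genes; on TPM they were 22 and 4, beside 25.6% and 39.8%. Both Large libraries lay above both Medium libraries for 9 genes, beside 18.3% of all tested genes: Nop56, Nolc1, Ubtf, Rrn3, Mybbp1a, Rrp12, Ltv1, Bop1 and Pes1. Polymerase I factors, with a median of 0.32 (0.43 and 0.20), had 4 of 4 genes higher in Large than in Medium within both numbers on CPM and 2 of 4 on TPM, and their median was 0.14 without Large 1 and 0.17 without Medium 2. Mybbp1a had the smallest p (log2 0.39, SE 0.17, adjusted p = 0.989, unadjusted p = 0.0613, edgeR), and the largest difference was that of Pno1 (log2 0.62, SE 0.51). EdgeR called 0% of all genes and 0 of the 38 genes, of which 0 had an unadjusted p under 0.05 (301 of all genes, 1.87%), and DESeq2 called 2 genes and none of the 38. Without Large 1 the median was 0.05, and without Medium 2 it was 0.07.

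Over the 3 gates, 29 of 38 genes were highest in Large within both numbers, beside 19.3% of all tested genes. Small was lowest within both numbers for 11 genes, beside 17.1%. Those 11 were Nop58, Nop56, Fbl, Dkc1, Nop10, Ncl, Npm1, Ddx21, Brix1, Nop16 and Gnl3, so they include 7 of the 10 snoRNP core and multifunctional proteins and 4 of the 28 other genes.

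**Figure D4:**
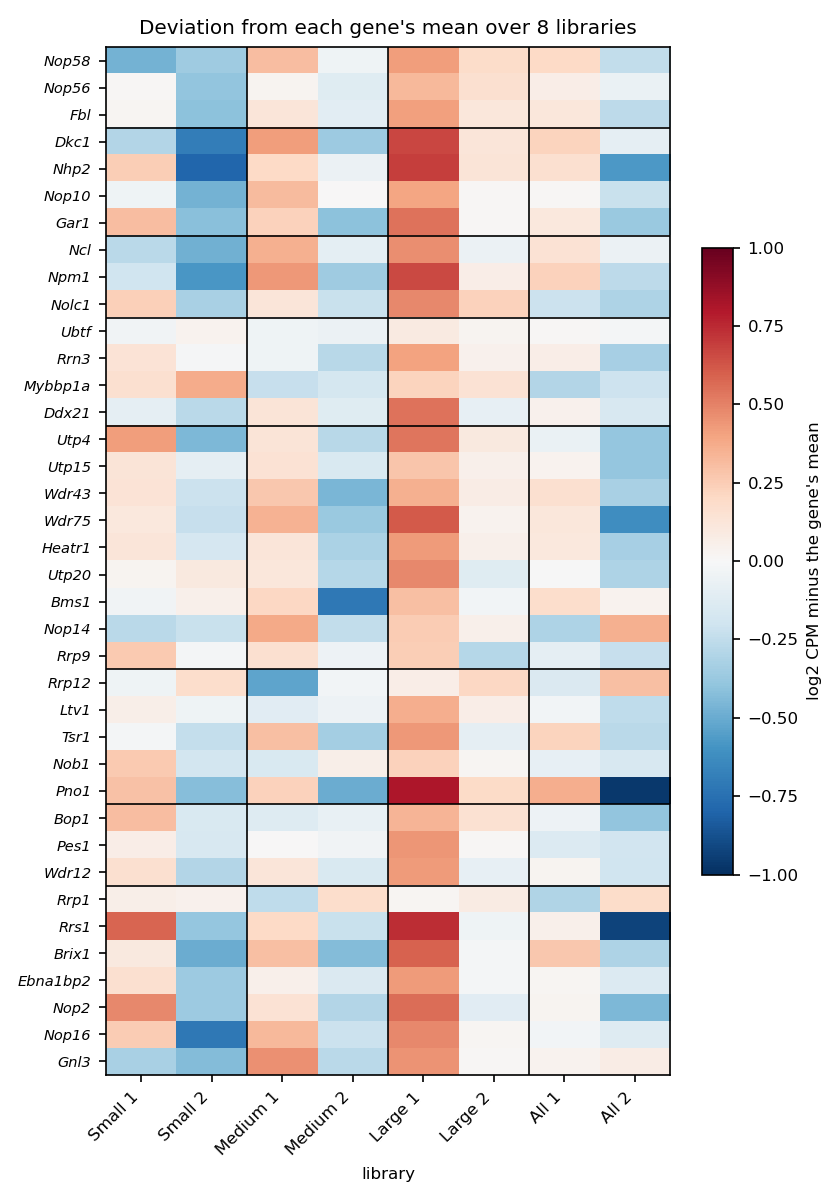
Deviation of log2 CPM from each gene's mean over the 8 libraries (colour, blue below and red above 0), with the 38 genes in rows, ordered and divided by role, and libraries in columns. The Large 1 column is red in nearly every row and holds the highest value for 31 genes, the Small 2 and All 2 columns are mostly blue, and Mybbp1a is red in both Small columns.

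Large HSCs also lay above unfractionated HSCs, and Medium and Small lay nearer to them. For Large against All the median was 0.33 (0.40 and 0.26), against -0.03 over all genes, and 38 of 38 fitted differences were above 0 (47.5% of all tested genes), from 0.04 (Bms1) to 0.76 (Rrs1). Within both numbers, 32 were higher in Large and 0 were lower, beside 31.2% and 32.6% of all tested genes, and on TPM 23 and 0, beside 24.2% and 38.8%. Both Large libraries lay above both All libraries for 11 genes, beside 15.8%. The TPM shift of all genes in this comparison was also -0.11. For Medium against All the median was 0.07 (0.10 and 0.04), and 32 of 38 fitted differences were above 0, beside 47.8% of all tested genes. There were 17 genes higher and 3 lower within both numbers, beside 24.6% and 24.9% (12 and 5 on TPM, beside 24% and 24.5%). For Small against All the median was 0.03 (0.06 and -0.03), with 21 of 38 fitted differences above 0, beside 46.5%. There were 11 genes higher and 10 lower, beside 26.7% and 31.3% (17 and 7 on TPM, beside 29.9% and 27.3%). Small lay below All with no overlap for 4 genes, Nop58, Dkc1, Ncl and Gnl3 (14.8% of all tested genes), and above it for 3, Mybbp1a, Utp20 and Rrp9 (12% of all tested genes). EdgeR called 0% of all genes in these 3 comparisons. At an unadjusted p under 0.05 there were 2, 0 and 1 of the 38 genes for Large, Medium and Small, beside 3.14%, 1.63% and 3.96% of all tested genes; DESeq2 called 8, 6 and 19 genes, none of them among the 38. The medians moved with single libraries: without All 2 that for Large against All was 0.20, and without All 1 it was 0.52; for Medium against All it was -0.10 without Medium 1, and for Small against All -0.19 without Small 1.

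Per length, the 38 genes spanned a wide range of levels. They made up between 0.467% and 0.662% of the TPM of a library, lowest in Small 2 and highest in Large 1. Npm1 was the most abundant (mean 775 TPM over the 8 libraries), followed by Nop56 (681) and Nop10 (448). Rrp1 (320), Ncl (292), Dkc1 (281), Nhp2 (272) and Nop58 (267) followed, so 7 of the 8 highest were snoRNP core or multifunctional proteins. The lowest were Utp20 (10.99 TPM), Rrp12 (16.3), Nop14 (21.8), Bms1 (22.3) and Ddx21 (26.3). Several neighbours in this order did not differ beyond their spread: Npm1 ranged from 566 to 1072 TPM and Nop56 from 590 to 773, and Dkc1, Nhp2 and Nop58 overlapped throughout.

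**Figure D5:**
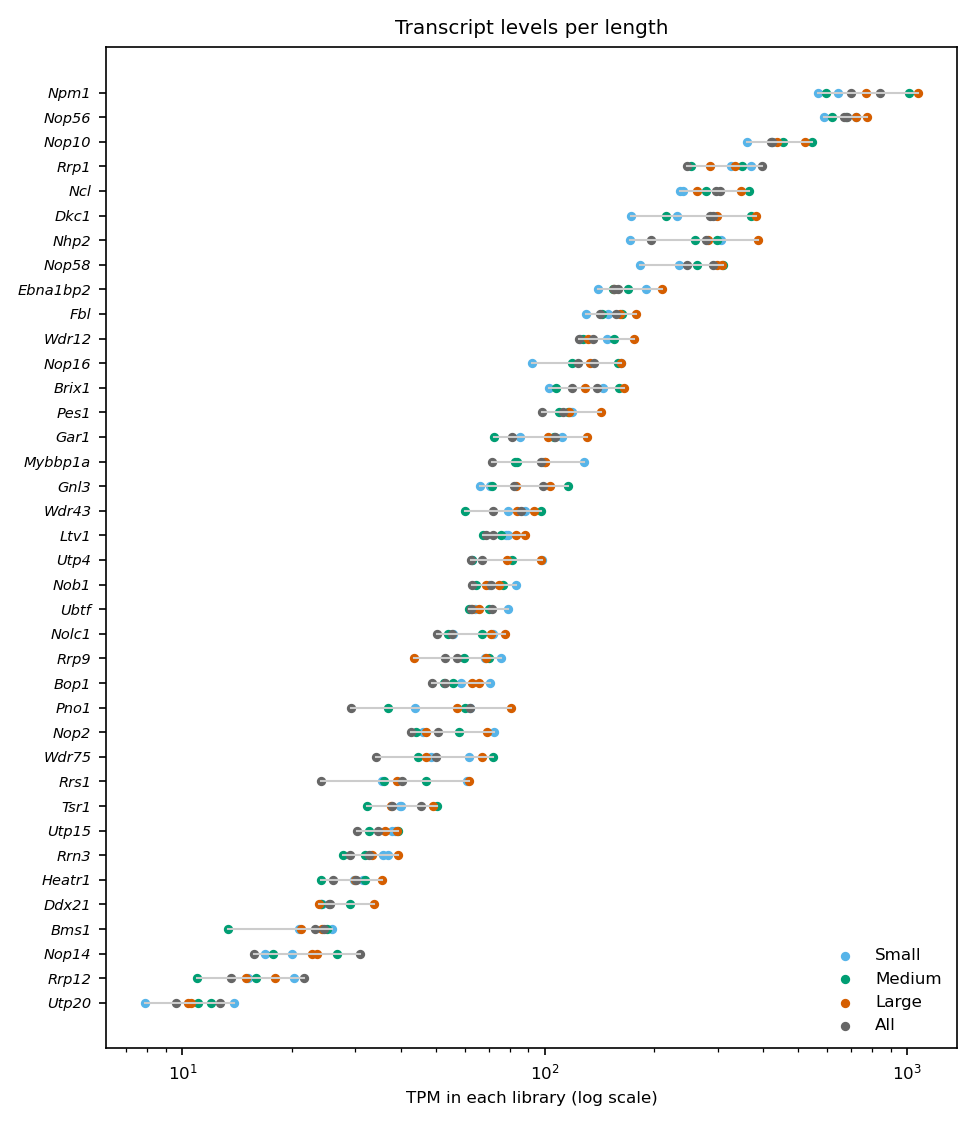
TPM of each of the 38 genes in each of the 8 libraries (horizontal axis, log scale), with genes in rows ordered by mean and points coloured by size group. Npm1 lies at the top (mean 775 TPM) and Utp20 at the bottom (mean 10.99), and the points of the 4 groups intermingle for most genes.

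Most other genes of the same process were also higher in Large than in Small. Of 110 further factors, taken from a fixed list of other small-subunit, large-subunit and snoRNP assembly genes, 77 were higher in Large than in Small within both numbers and 14 were lower (32.9% and 30.9% of all tested genes), with a median of 0.28. None passed edgeR's test, and 4 had an unadjusted p under 0.05, beside 3.15% of all tested genes. The 10 snoRNP assembly factors had the highest median of the 3 lists (0.39), with 8 higher and 0 lower, beside 0.27 for 45 small-subunit and 0.20 for 55 large-subunit factors. Against All the snoRNP assembly factors had the lowest (0.16, with 5 higher in Large and 1 lower), beside 0.26 for each of the other lists. Lyar, a nucleolar growth regulator, had the largest difference (log2 0.80, SE 0.51, edgeR), with 61.1 and 31.9 CPM in the Small pair, 74.1 and 38.7 in the Medium pair, 103 and 58.5 in the Large pair and 74.1 and 41.4 in the All pair. Number 1 lay above number 2 in every group, and Large 2 lay below Small 1. Znhit3, a snoRNP assembly protein, differed by 0.77 (SE 0.51) and Utp14a, a processome factor, by 0.75 (SE 0.40). At the other end were Ddx54 (log2 -0.58, SE 0.25) and Dhx37 (log2 -0.58, SE 0.32), both RNA helicases, and the processome protein Nol6 (log2 -0.38, SE 0.24).

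The 7 snoRNA hosts differed from the rest of the 38 in Large against Small. Their median difference was 0.59, against 0.27 for the other 31, while over all tested protein-coding genes it was 0.17 for the 219 hosts and -0.02 for the other 12996. Within the host group Dkc1 (0.90), Nop58 (0.72), Gnl3 (0.63) and Ncl (0.59) were highest, and Nop56 (0.42), Tsr1 (0.32) and Wdr43 (0.25) lower. These are descriptions with no test, and snoRNA annotations overlap annotated exons of 4 of the 7 hosts (Nop58, Nop56, Ncl and Gnl3). The hosts Nop58, Nop56, Dkc1 and Ncl also belong to the snoRNP core or multifunctional roles, which had the highest medians. Host status and role thus overlap, and their parts in the difference were not separated. Across the 38 genes, the difference for Large against Small was also ordered by base composition and length of the principal transcript (Spearman's rho -0.54 with GC content and -0.35 with length), and over 16017 genes the values were -0.21 and -0.18. For Large against Medium they were 0.09 and 0.05 over the 38 genes, and for Large against All 0.01 and -0.20. Medium against Small gave -0.48 and -0.25, Small against All 0.45 and 0.09, and Medium against All 0.05 and -0.35. The part of base composition in the differences between roles was not tested. These correlations are across genes that share the same libraries and are descriptions only.

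Promoter sequence was examined because these genes are often described as targets of MYC and because most of them were higher in Large together. Of the 38 genes, 33 had a promoter in the RefSeq set of GRCm38.p6, and the motifs were searched on both strands in the 250 bases before each RefSeq start listed for a gene. The E-box CACGTG was found in 2 of 33 promoters (6.06%), those of Nop2 and Rrn3, beside 9.73% of 11007 tested genes with a promoter. The ETS motif CCGGAAG was in 9 (27.3%), beside 15%. The SP1 motif GGGCGG was in 19 (57.6%), beside 61.2%, CCAAT was in 9 (27.3%), beside 40.3%, and TATAAA was in 2 (6.06%), beside 8.4%. The NRF1 motif was in 0, beside 1.78%. The 2 promoters with an E-box and that of Nop58, the gene with the smallest p, are shown upstream of the start, with the motifs in capitals. They are the bases before the start, 5′ to 3′ on the strand of the gene, and that of Nop58 stops at its earlier GENCODE start, so 215 of the 250 bases searched are printed.
Nop2 (chr6:125131633-125131882, plus strand): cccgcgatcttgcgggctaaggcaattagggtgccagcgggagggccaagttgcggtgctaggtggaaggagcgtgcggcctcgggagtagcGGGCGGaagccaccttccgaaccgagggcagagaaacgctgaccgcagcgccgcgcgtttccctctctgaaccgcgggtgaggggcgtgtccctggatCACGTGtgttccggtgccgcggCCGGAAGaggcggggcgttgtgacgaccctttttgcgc
Rrn3 (chr16:13780449-13780698, plus strand): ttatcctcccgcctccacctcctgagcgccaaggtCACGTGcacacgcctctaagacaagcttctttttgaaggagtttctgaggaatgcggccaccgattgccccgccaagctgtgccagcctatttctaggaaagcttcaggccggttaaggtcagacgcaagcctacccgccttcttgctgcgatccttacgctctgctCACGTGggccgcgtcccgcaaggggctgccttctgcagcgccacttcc
Nop58 (chr1:59684756-59684970, plus strand): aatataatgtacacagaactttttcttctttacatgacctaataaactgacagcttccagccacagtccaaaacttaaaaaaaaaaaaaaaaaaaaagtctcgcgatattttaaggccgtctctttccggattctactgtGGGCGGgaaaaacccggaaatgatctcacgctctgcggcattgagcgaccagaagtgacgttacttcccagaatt
In Nop2 the capitals are an SP1, an E-box and an ETS motif in that order, in Rrn3 2 E-boxes, and in Nop58 an SP1 motif. Nop2 and Rrn3 had differences of 0.14 and 0.17 between Large and Small, below the median of the 38 genes, and Nop58 had 0.72. A match of letters is not a site of binding, and no match says only that these letters are not in the window.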

How the data were processed

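RNA was sequenced from 8 libraries of sorted mouse HSCs, 2 each of Small, Medium, Large and All, with groups and numbers taken from the sample titles. Per the submitters' processing notes, STAR 2.5.3a, RSEM 1.3.0, SAMtools 1.3 and the build mm10 were used; neither the annotation release nor the use of strand is stated in what was used here. The deposited tables hold expected counts for each gene as whole numbers, without scaling from library to library, and log2(TPM + 1) values, whose TPM add up to 1000000 in each library. Genes were named through GENCODE M21 (50462 of 50686 identifiers); counts without a symbol were at most 0.0359% of a library. Counts were tested with edgeR 4.0.16 in R 4.3.3 by its quasi-likelihood method, after TMM scaling and filterByExpr with a minimum count of 10; the model was robust, held the group alone and took in all 8 libraries (4 residual degrees of freedom). P-values are two-sided, adjusted by the Benjamini-Hochberg method over all 16066 genes, with a threshold of 0.05. An exact test of 2 against 2 libraries cannot give a two-sided p under 0.333, so none was used. SE is the fitted log2 difference divided by the square root of the F statistic. Differences within a replicate number are of log2 CPM with a prior count of 2.

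The 38 genes and all gene lists were chosen with earlier results of these data known, so counts over them are descriptions beside the share of all tested genes, with no set test. Values in every library were planned for genes whose Large libraries both lay on one side of both Small libraries, for the 2 most abundant genes of each role, and for genes opposite in sign to the median. For some abundant genes, among them Wdr43, Utp4 and Nob1, only the Large and Small pairs are given. Of 111 further pathway genes listed, 110 matched, and the 3 with the largest and the 3 with the smallest difference among those with a mean of at least 5 CPM were named. Replicates of a group differed far beyond sampling noise, so none was counted as a duplicate. The edgeR step was run on simulated counts with larger changes than the 38 genes had and no difference between replicate numbers. It was a check of the code, not of how well differences like those of the 38 genes are called. Alternatives were DESeq2 1.42.0, limma 3.58.1 (voom, and trend on log2 TPM), other filters and scalings, removal of length and GC trends, a block on the number, and leaving out each library. Reads were amplified with no molecular identifiers, so no counting intervals are given. HSCs from treated mice were not analysed here.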

Additional observations from a re-analysis of the deposited data

How the results depend on the processing

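Across the alternatives run (other normalizations, filters and tools, the block, and leaving out each library), 0 of the 38 genes were called in each of the 6 comparisons. Over all genes, edgeR without a filter on low counts called 55 for Large against Small, 58 for Large against Medium, 73 for Medium against Small, 69 for Small against All, 48 for Medium against All and 121 for Large against All, against 0 with the filter, and limma on log2(TPM + 1) called 1, 1, 0, 0, 0 and 1.

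The median log2 difference of the 38 genes for Large against Small, 0.29, was 0.27 with no filter, 0.26 with a minimum count of 50, 0.27 with only the 2 groups compared, 0.14 on log2(TPM + 1) and 0.34 with length and GC trends removed. For Large against Medium, 0.29, it was 0.24 with a minimum count of 50 and 0.17 on log2(TPM + 1). Large against All, 0.33, was 0.20 on log2(TPM + 1), and Medium against Small, -0.02, was 0.05 with length and GC trends removed. Leaving out each library in turn gave 0.07 to 0.56 for Large against Small, 0.05 to 0.44 for Large against Medium, -0.15 to 0.28 for Medium against Small, -0.19 to 0.21 for Small against All, -0.10 to 0.35 for Medium against All and 0.13 to 0.52 for Large against All; a lone library was assumed to vary like those of the other groups. Leaving out a library leaves its group with 1 replicate number, so differences between the numbers enter those medians. In each comparison, the median fell without number 1 of the first-named group or number 2 of the second. It rose without number 2 of the first-named group or number 1 of the second. How much of each such shift came from the numbers was not tested, nor was the cause of the other shifts. Counts of genes higher in Large within both numbers under other scalings were chosen after seeing the data. With DESeq2's size factors they were 31, 32 and 32 against Small, Medium and All.

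The replicate numbers are not stated to mark a shared animal, batch or day. Deviations of same-numbered libraries correlated between groups at 0.36 to 0.44 (number 1 minus number 2, all genes), as a hint from the data and not the design. With the replicate number as a block, edgeR called 0 of the 38 genes and 0 of all genes in each comparison. Of the 38, the number with an unadjusted p under 0.05 went from 2 to 15 for Large against Small (smallest adjusted p = 0.0654, median 0.30), from 0 to 11 for Large against Medium, from 2 to 7 for Medium against Small, from 1 to 7 for Small against All, from 0 to 2 for Medium against All and from 2 to 19 for Large against All. Over all genes the block took that share from 3.15% to 17.4%, 1.87% to 14.8%, 4.33% to 12.5%, 3.96% to 11.5%, 1.63% to 5.26% and 3.14% to 19.8% in the same order, so for Medium against All the 38 genes lay at the background. With the block and the length and GC trends removed, the median was 0.34 for Large against Small and 0.05 for Medium against Small.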
